A study of Homo sapiens with 6 samples.

Results

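The translation initiation factors (EIF genes) and translation elongation factors (EEF genes) of HCT116 cells were examined after knockdown of IGF2BP3. Members were the protein-coding genes whose symbol begins with EIF or EEF followed by a digit. The 4 kinases of eIF2 (EIF2AK1 to EIF2AK4) and 2 read-through genes with hyphenated names were left out. This gave 65 members among the 62710 genes of the count table, of which 20048 are protein-coding. They were read by factor group: 5 EIF1 genes, 11 EIF2 genes, 14 EIF3 genes, 16 EIF4 genes, 6 EIF5 and EIF6 genes, 10 EEF1 genes and 3 EEF2 genes.

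HCT116 is an established human colon cancer cell line. RNA sequencing of total RNA was carried out on 3 libraries of cells carrying a short hairpin RNA against IGF2BP3 (sh-IGF2BP3) and 3 libraries of cells carrying a scrambled hairpin (sh-NC). Both hairpins were delivered by lentivirus and the cells were selected with puromycin, so the controls share the vector and the drug. Each arm rests on 1 hairpin sequence, and the labels do not say that the libraries came from separate cultures, so the tests measure the spread between these libraries. The question was how the RNA of the translation machinery differed between the 2 arms.

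The 2 hairpin sequences, each of 19 bases, are shown because the comparison rests on them.
sh-IGF2BP3: ggctcagggaagaatttat
sh-NC: ttctccgaacgtgtcacgt
The sh-IGF2BP3 sequence lies in the coding sequence of IGF2BP3 where exon 12 meets exon 13 of its 15 exons (GRCh38, chr7:23313636-23317639, minus strand, the span including the intron). It matched transcripts of 2 genes, IGF2BP3 and AC092447.1, and of 0 members. The sh-NC sequence matched 0 genes.

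Initiation begins when eIF2, a complex of an alpha, a beta and a gamma subunit, carries the initiator tRNA to the small ribosomal subunit, where eIF1, eIF1A, eIF3 and eIF5 join it. The cap of the mRNA is recognised by eIF4E, which binds the scaffold eIF4G and the helicase eIF4A, and the 4E-binding proteins compete with eIF4G for eIF4E. eEF1A then brings each aminoacyl-tRNA to the ribosome and eEF2 moves the ribosome along the mRNA. IGF2BP3 is an RNA-binding protein that attaches to many mRNAs and affects their stability and translation.

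Total counts per library were 16146718 to 23576469. IGF2BP3 itself was at 90.3, 84.1 and 70.3 CPM (counts scaled to the library size after TMM adjustment) in sh-NC replicates 1, 2 and 3, and at 60.2, 52.3 and 55.8 CPM in the sh-IGF2BP3 replicates. The 2 groups did not overlap, and the ratio of the means was 0.687. In bulk RNA, fewer cells with a transcript and less of it per cell cannot be told apart. The fitted log2 fold change was -0.54 with a standard error (SE) of 0.181 and an adjusted p of 0.126. The paper also reports checks of the HCT116 knockdown by qPCR and Western blotting, which are other measures than these counts. Of the 7 epithelial markers, EPCAM, CDH1, KRT8, KRT18, KRT19 and CDX2 were at 10.9 CPM or more in all 6 libraries, whereas VIL1 was at 0.196 CPM or less. Of the markers of other cells, PTPRC, ALB and PECAM1 were at 1.64 CPM or less, and COL1A1 was at 28.0 to 58.5 CPM. The libraries differed in how counts depended on the GC content of the transcript. The slope of log2 CPM over all genes, per 10 percentage points of GC, was -0.05, -0.23 and -0.21 in the sh-NC libraries and 0.35, 0.15 and -0.01 in the sh-IGF2BP3 libraries.

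No translation factor passed the test, and neither did any other gene. Of the 65 members, 61 had enough counts to be tested. edgeR's quasi-likelihood test called 0 members higher and 0 lower at a fold above 1.5 and a Benjamini-Hochberg adjusted p under 0.05, where it called 0% of all 16753 genes in each direction. DESeq2 on the same counts called 4 members higher and 0 lower, against 4.29% and 1.05% of the 13087 genes to which it gave an adjusted p. At an unadjusted p under 0.05, edgeR placed 13 members higher in sh-IGF2BP3 and 2 lower. The same held for 13.6% of all genes in the higher direction and 8.54% in the lower.

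Read without a test, the members leaned towards higher values in sh-IGF2BP3. The log2 fold change was positive for 39 members and negative for 22, with a median of 0.13, beside a median of -0.014 over all genes. Without replicate 3 of sh-NC 31 were positive and 30 negative with a median of 0.00033, and without replicate 1 of sh-NC the median was 0.24. In 7 members all 3 sh-IGF2BP3 libraries lay above all 3 sh-NC libraries, and in 4 they lay below. Over all genes the shares were 13.2% above and 11% below, so by this count, in the fit of all libraries, the members did not stand out. Counts under other settings are given below beside their shares, and the differences from those shares were not tested. The 7 were EIF6, EEF2KMT, EIF3G, EIF4H, EIF2B2, EEF1AKMT1 and EEF1AKMT4, and the 4 were EIF4EBP2, EIF2S3, EEF1AKMT3 and EIF4B.

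**Figure D1:**
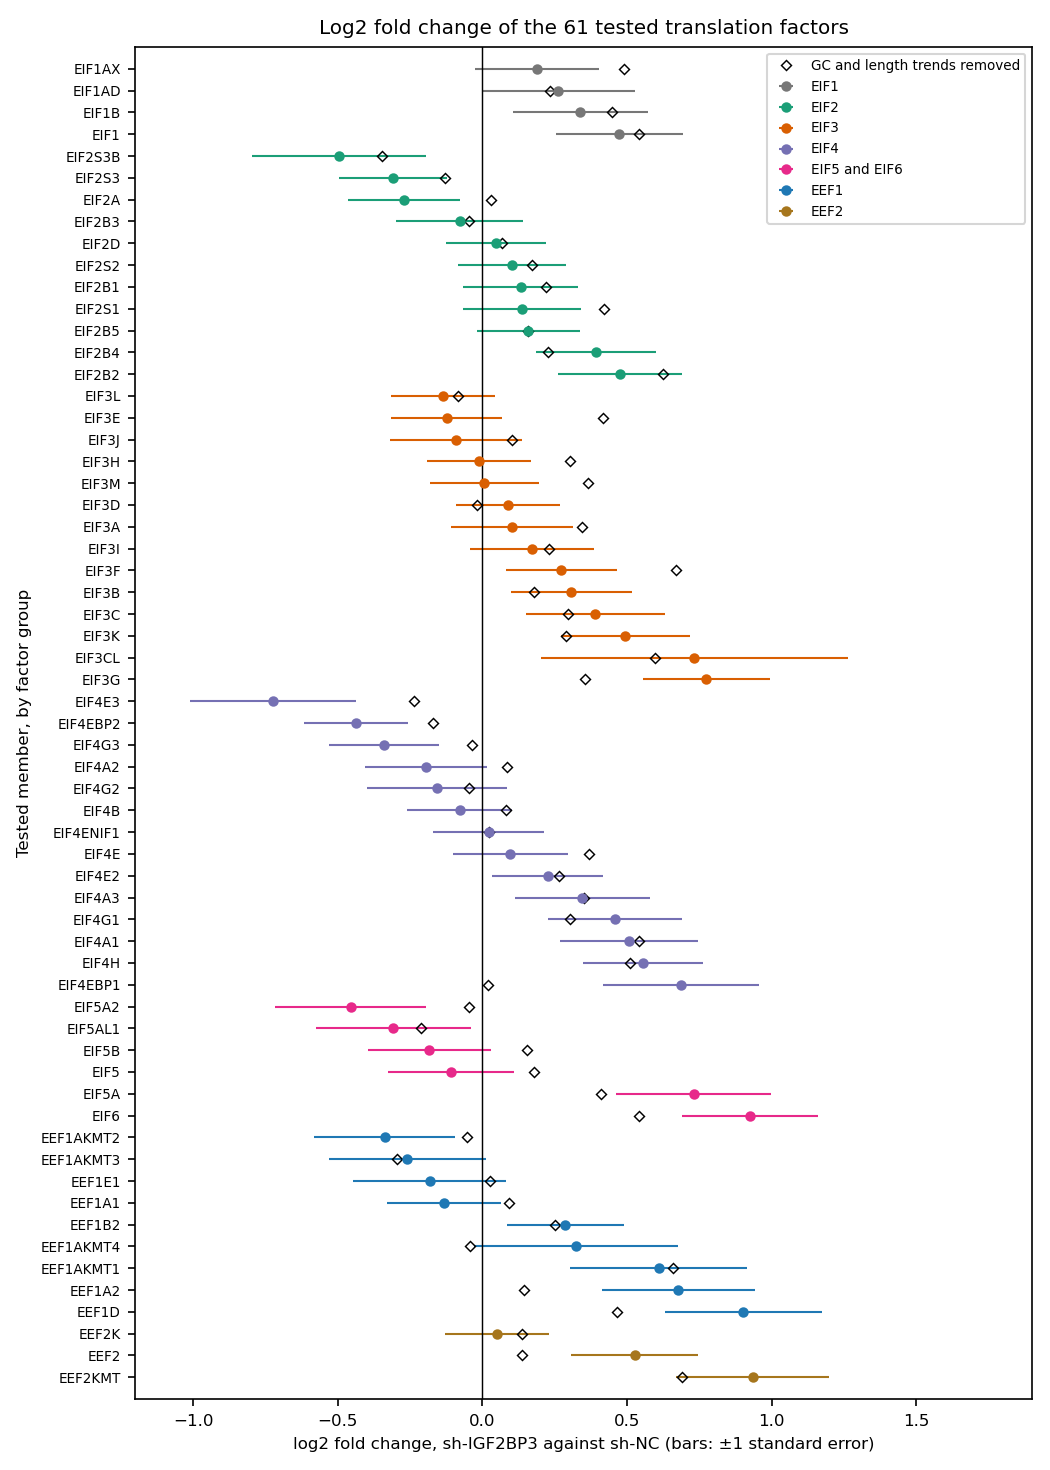
Log2 fold change of sh-IGF2BP3 against sh-NC for the 61 tested members (horizontal axis), by factor group (vertical axis and colour), with bars of 1 standard error and open diamonds for the value after trends with GC content and gene length were removed. The members run from -0.72 (EIF4E3) to 0.93 (EEF2KMT), 39 of them to the right of 0.

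The order of the members' fold changes followed the GC content of their transcripts. Across the 61 members Spearman's rho between the log2 fold change and transcript GC content was 0.71, and across the 16236 genes with a GC value it was 0.62. Genes are not independent replicates and share the same 6 libraries, so these are descriptions. Members were split into 3 parts by GC. All 20 members of the highest part (52.1 to 66.4% GC) had a positive log2 fold change, with a median of 0.51. In the middle part (44.4 to 51.7%) 12 of 20 were positive with a median of 0.08, and in the lowest part (34.3 to 43.7%) 7 of 21 were positive with a median of -0.12.

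When the trends with GC content and gene length were taken out of each library, the ordering by GC weakened among the members. The rho was then 0.14 over the members and 0.02 over all genes. The trends were fitted to these same genes, so the small rho over all genes follows from the removal itself. The members' median was 0.18, beside 0.015 over all genes, and 47 members were positive and 14 negative. At an unadjusted p under 0.05, 11 members were higher and 0 lower, against 6.40% and 3.67% of all genes. There were 8 members above without overlap and 2 below, against 8.10% and 6.64% of all genes, and edgeR again called 0 members in either direction. IGF2BP3 itself was then at -0.20 (adjusted p = 0.719), against -0.54 in the counts as deposited. The 8 were EIF6, EEF2KMT, EIF4H, EIF2B2, EEF1AKMT1, EIF3E, EIF3M and EEF2K, and the 2 were EIF4EBP2 and EEF1AKMT3. What the GC trend of the libraries contributes to any member's value was not tested further.

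**Figure D2:**
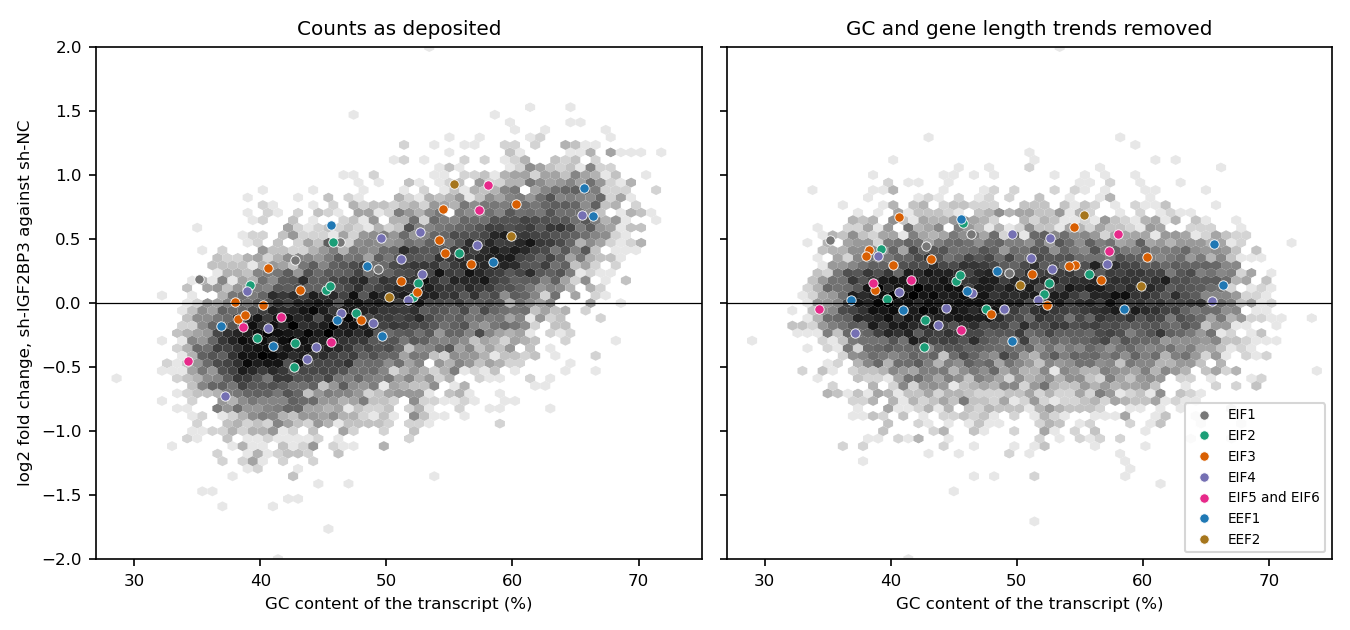
Log2 fold change of sh-IGF2BP3 against sh-NC (vertical axis, genes beyond 2 drawn at the edge) against the GC content of the transcript in percent (horizontal axis), with all tested genes in grey on a log density scale and the 61 members coloured by factor group. In the counts as deposited the members climb with GC together with the other genes (rho 0.71 and 0.62). After removal of the trends, which were fitted to these same genes, they do not (0.14 and 0.02).

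These counts moved when 1 library was left out, upwards or downwards by library. The median deviation of the members from their mean over the 6 libraries was 0.13, -0.06 and -0.28 log2 units in sh-NC replicates 1, 2 and 3 and -0.05, 0.18 and 0.08 in the sh-IGF2BP3 replicates. Replicate 1 of sh-NC therefore stood with the sh-IGF2BP3 libraries, and the 2 groups overlapped. Without it, edgeR called 18 members higher and 2 lower, against 10% and 5.67% of the genes then tested. The 18 were EEF1D, EEF1A2, EIF6, EEF2KMT, EIF5A, EIF3G, EIF3CL, EIF3C, EIF4G1, EIF4H, EIF2B2, EIF3K, EIF2B4, EIF4A1, EIF4A3, EIF1, EIF4EBP1 and EEF2, and the 2 were EIF4E3 and EIF5A2. Without replicate 3 of sh-IGF2BP3, EIF6 alone of the members was called higher, against 1.23% of all genes. At an unadjusted p under 0.05 the 13 higher members became 22 without replicate 1 of sh-NC, where the share of all genes was 17.7%. They became 5 and 4 without replicate 2 or 3 of sh-NC (7.02% and 7.58% of all genes) and 6 and 5 without replicate 1 or 2 of sh-IGF2BP3 (8.74% and 7.53%). The 7 members above without overlap became 27 without replicate 1 of sh-NC and 15 without replicate 3 of sh-IGF2BP3, where the shares of all genes were 24.3% and 21.7%.

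**Figure D3:**
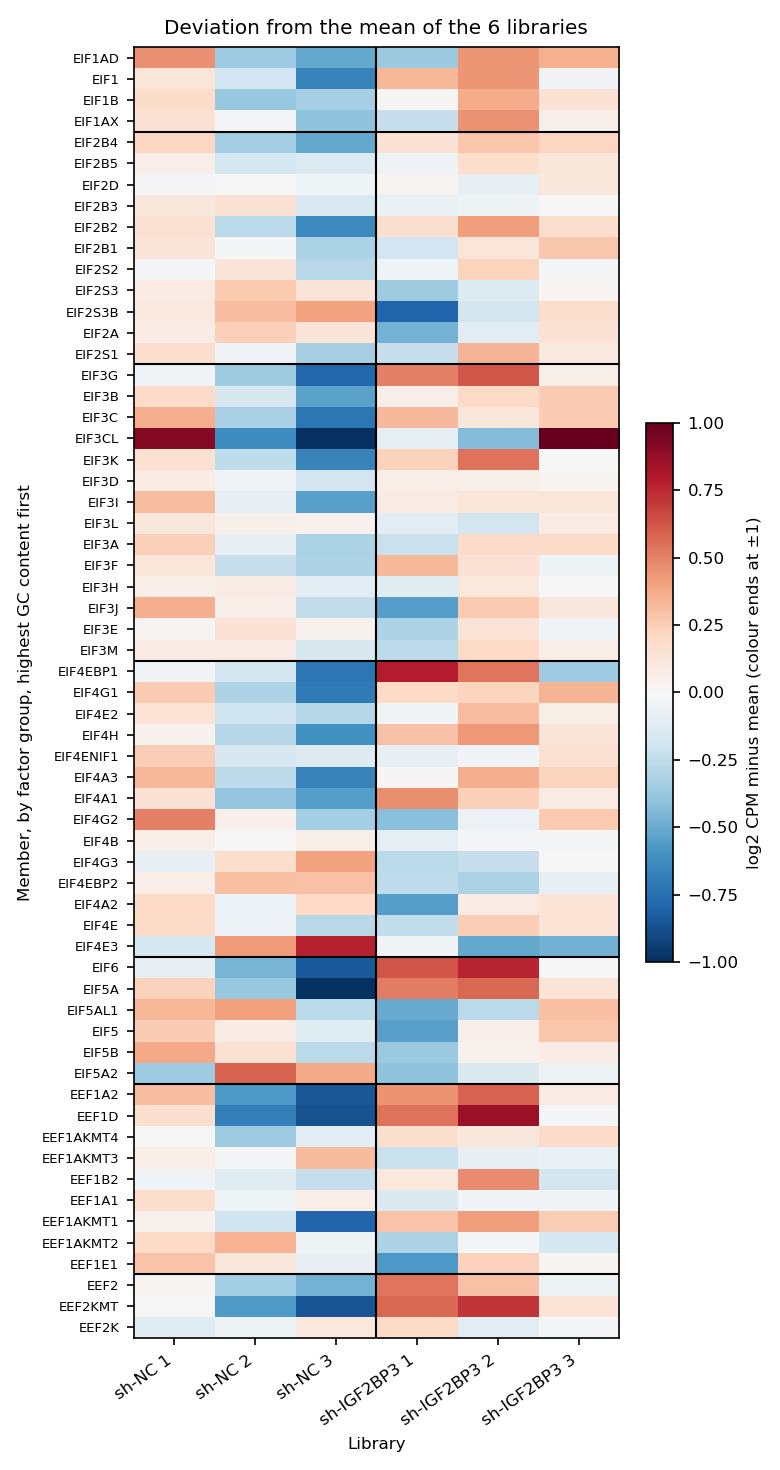
Deviation of log2 CPM from the mean of the 6 libraries (colour, ends at 1 unit) for the 61 tested members (rows, by factor group with the highest GC content first) in each library (columns). Replicate 1 of sh-NC (member median 0.13) is mostly on the higher side and replicate 3 (median -0.28) mostly on the lower side.

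The members took 2.82 to 3.17% of all counts in the sh-NC libraries and 2.94 to 3.04% in the sh-IGF2BP3 libraries, so their summed share overlapped. EEF1A1 alone accounted for 1.15 to 1.32% and 1.05 to 1.10%. The most abundant members per length, by the median over the 6 libraries of the deposited FPKM (fragments per kilobase of gene, scaled to library depth), were EEF1A1 at 1116, EEF2 at 893, EIF5A at 234, EIF3A at 190 and EIF4G2 at 181. EIF1 led the EIF1 genes at 92.9 FPKM and EIF2S3 the EIF2 genes at 96.7 FPKM. FPKM levels between members depend on the gene length behind them. For EIF3E, a core eIF3 subunit, the deposited values imply 37761 bases although its principal transcript has 1543, and it stood at 15.2 FPKM but at 377 CPM per kilobase of that transcript. The order changed on that scale: EIF3A stood at 207, below EIF3E, and EIF4G2 at 787, above EIF5A at 431.

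The members' annotated starts were read for the 5′ terminal oligopyrimidine tract, a C followed by a run of pyrimidines at the start of the mRNA, which marks many mRNAs of the translation machinery. RefSeq start sites (GRCh38.p14) were found for 52 of the 65 members. A C start with a run of at least 5 pyrimidines (C or T, counted from the start base on the gene's strand only) was present in 12 of the 52 (23.1%) and in 4.04% of all 27305 RefSeq starts read the same way. Windows of 9 members with such a run and of 2 without are given to show how they differ. Each holds 20 bases before the start and 10 from it, and capitals mark the pyrimidine run from the start base.
EEF1A1 (chr6:73521023-73521052, minus strand): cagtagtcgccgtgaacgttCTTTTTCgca
EEF2 (chr19:3985454-3985483, minus strand): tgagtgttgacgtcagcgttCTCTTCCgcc
EIF2S3 (chrX:24054936-24054965, plus strand): cagccggggtgatttccttcCTCTTTTggc
EIF3D (chr22:36529157-36529186, minus strand): ccgctgcgcgcgcatgtttcCTCTTTTCCT
EIF3F (chr11:7987317-7987346, plus strand): gtcatttccgcttccgcctcCTTCTTTCTC
EIF3K (chr19:38619168-38619197, plus strand): gtcgtttccgtttccaccacCTCTTCCTgt
EIF3M (chr11:32583811-32583840, plus strand): gcgtcgcgcggcccagttccCTTTTCCggt
EIF4A2 (chr3:186783557-186783586, plus strand): gggtggttgggcgccgctgtCTTTTCagtc
EIF4B (chr12:53006436-53006465, plus strand): cgtgattgcctcatccgggtCTTTTgcgtt
EIF6 (chr20:35284708-35284737, minus strand): actggttacttggtaagctggtgtgagggg
EIF4EBP2 (chr10:70404125-70404154, plus strand): tctggctcccgccttcgcccgcttccggtc
The remaining starts with a run were those of EIF2A, EIF2D and EIF2S3B. A match says only that these letters stand at the annotated start.

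Of the 12 members with a pyrimidine start, all tested, 6 had a positive and 6 a negative log2 fold change, with a median of -0.04, or 0.08 with the trends removed. Of the 36 tested members with an annotated start and no run, 24 were positive and 12 negative, with a median of 0.16, or 0.22 with the trends removed. The difference between the 2 sets was not tested. Members known for such tracts were listed as EEF1A1, EEF1B2, EEF1D, EEF1G, EEF2, EIF3A, EIF3E, EIF3F, EIF3H and EIF4B. Of the 6 of these with an annotated start, 4 had a run (66.7%) and EEF1B2 and EEF1G began with A, while of the other 46 members with a start 8 had one (17.4%). Of the 10 listed, 9 were tested, 5 positive and 4 negative with a median of 0.10, or 0.30 with the trends removed, and 2 of them (EEF1D and EEF2) were higher at an unadjusted p under 0.05, against 13.6% of all genes.

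The EIF1 genes were not called. Those other than EIF1AD, which shares a domain with eIF1A, act in scanning for the start codon. The 4 tested genes (EIF1, EIF1B, EIF1AX and EIF1AD) had positive log2 fold changes with a median of 0.30, and 0.47 once both trends had been taken out, and EIF1AY did not pass the filter. Without replicate 2 of sh-IGF2BP3 3 were positive and 1 negative, and the median ran from 0.15 without replicate 3 of sh-NC to 0.59 without replicate 1. EIF1, which guards the choice of the start codon, was at 368, 296 and 213 CPM in sh-NC and at 427, 460 and 332 CPM in sh-IGF2BP3. The groups overlapped only through replicate 1 of sh-NC and replicate 3 of sh-IGF2BP3. The log2 fold change was 0.47 (SE 0.221, adjusted p = 0.223), or 0.54 with the trends removed, and 0.27 without replicate 3 of sh-NC.
Its paralog EIF1B was at 19.8, 13.3 and 13.7 CPM and at 17.5, 22.4 and 19.3 CPM, with overlap and a log2 fold change of 0.34 (SE 0.234, adjusted p = 0.403), or 0.45 with the trends removed, and 0.55 without replicate 1 of sh-NC.

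None of the 3 subunits of eIF2 was called, and differences between them were not tested. EIF2S3, the gamma subunit that holds the initiator tRNA, was at 419, 474 and 432 CPM in sh-NC and at 309, 359 and 401 CPM in sh-IGF2BP3. All sh-IGF2BP3 libraries lay below all controls, by a log2 fold change of -0.31 (SE 0.186, adjusted p = 0.339), which was -0.13 with the trends removed and then overlapped. EIF2S1, the alpha subunit that the stress kinases phosphorylate, was at 202, 175 and 143 CPM against 153, 226 and 192 CPM. EIF2S2, the beta subunit, was at 178, 196 and 148 CPM against 174, 208 and 177 CPM. Both overlapped between the groups, with log2 fold changes of 0.14 (SE 0.204) and 0.10 (SE 0.187) and adjusted p-values of 0.718 and 0.776. With the trends removed they were at 0.42 and 0.17. Both turned negative without replicate 3 of sh-NC.

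The guanine nucleotide exchange factor eIF2B, which recharges eIF2 with GTP, was represented by its 5 subunits EIF2B1 to EIF2B5. EIF2B2, the beta subunit, was at 48.3, 36.1 and 28.0 CPM in sh-NC and at 48.8, 58.3 and 49.2 CPM in sh-IGF2BP3. The groups were parted by the narrow gap between the highest control and the lowest knockdown library. Its log2 fold change was 0.48 (SE 0.213, adjusted p = 0.208) and 0.62 with the trends removed, and 0.28 without replicate 3 of sh-NC. The other 4 ran from -0.08 (EIF2B3) to 0.39 (EIF2B4). Without replicate 1 of sh-NC EIF2B3 was at -0.039 and EIF2B4 at 0.64. Over the 11 EIF2 genes 7 were positive and 4 negative with a median of 0.10. Without replicate 3 of sh-NC 4 were positive and 7 negative with a median of -0.0052, and without replicate 3 or 2 of sh-IGF2BP3 the median was 0.0090 or 0.018. In the fit of all libraries EIF2B2 was the 1 member of the group with an unadjusted p under 0.05. EIF2S3B, at 3.49 to 8.12 CPM, is a near-identical copy of EIF2S3, so its reads are uncertain.

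The 14 EIF3 genes, which form the largest initiation complex, had a median log2 fold change of 0.14, with 10 positive and 4 negative, and of 0.30 with the trends removed. Without replicate 3 of sh-NC 7 were positive and 7 negative with a median of -0.020, and without replicate 3 of sh-IGF2BP3 the median was 0.051. EIF3G, an RNA-binding subunit of eIF3, was at 106, 84.6 and 62.7 CPM in sh-NC and at 153, 166 and 113 CPM in sh-IGF2BP3. Every knockdown library was above every control. The log2 fold change was 0.77 (SE 0.220, adjusted p = 0.108), with a DESeq2 adjusted p of 0.0389, and it was 0.36 with the trends removed, when the groups overlapped. EIF3A, the scaffold subunit and the most abundant by FPKM, was at 1554, 1246 and 1059 CPM against 1129, 1506 and 1504 CPM. These groups overlapped fully, and the log2 fold change was 0.10 (SE 0.211, adjusted p = 0.803), or 0.34 with the trends removed. It turned to -0.042 without replicate 3 of sh-NC and was 0.26 without replicate 1.

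EIF3K was the other eIF3 member with an unadjusted p under 0.05 in the higher direction, with a log2 fold change of 0.49, or 0.29 with the trends removed, and its groups overlapped. EIF3E and EIF3M, whose transcripts have 38.2 and 38.0% GC, were at -0.12 and 0.01 in the counts as deposited. With the trends removed they were at 0.42 and 0.37, above all controls. EIF3C and EIF3CL are near-identical copies whose reads cannot be told apart with certainty. EIF3CL varied widely within a group, from 4.44 to 22.8 CPM in sh-NC and from 8.89 to 37.7 CPM in sh-IGF2BP3.

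The EIF4 genes encode the cap-binding proteins, their scaffolds, the helicases with their stimulators, and the inhibitors, and none was called. EIF4H, which stimulates the helicase eIF4A, was at 619, 496 and 396 CPM in sh-NC and at 742, 818 and 660 CPM in sh-IGF2BP3. No library of one group reached the other, and the log2 fold change was 0.55 (SE 0.207, adjusted p = 0.148) and 0.51 with the trends removed. EIF4B, the other stimulator of eIF4A, was at 1019, 975 and 1015 CPM against 914, 967 and 967 CPM. It also did not overlap, although the log2 fold change was only -0.08 (SE 0.182, adjusted p = 0.823) and became 0.08 with the trends removed.

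The 4E-binding proteins, which hold eIF4E away from eIF4G, had opposite signs. EIF4EBP1 was at 33.1, 30.2 and 20.6 CPM in sh-NC and at 59.1, 49.5 and 26.5 CPM in sh-IGF2BP3, and replicate 3 of sh-IGF2BP3 fell within the controls. Its log2 fold change was 0.69 (SE 0.268, adjusted p = 0.159) and 0.02 with the trends removed, its transcript having 65.5% GC, and 0.44 without replicate 1 of sh-IGF2BP3. EIF4EBP2 was at 172, 202 and 200 CPM against 137, 132 and 155 CPM, below the controls in all 3 knockdown libraries. Its log2 fold change was -0.44 (SE 0.180, adjusted p = 0.174) and -0.17 with the trends removed, still without overlap. EIF4EBP3 was at 0.515 CPM or less and was not tested.

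EIF4E3, an atypical cap-binding member, had the most negative log2 fold change of the tested members. It was at 8.30, 12.7 and 16.1 CPM in sh-NC and at 9.21, 6.54 and 6.70 CPM in sh-IGF2BP3. The groups overlapped through replicate 1 of sh-NC, and the log2 fold change of -0.72 (SE 0.286, adjusted p = 0.164) was -0.24 with the trends removed. EIF4E, the cap-binding protein itself, was at 141, 118 and 102 CPM against 104, 147 and 136 CPM, and EIF4E2, which binds the cap in repressor complexes, was at 60.2, 47.6 and 44.9 CPM against 53.7, 67.9 and 56.8 CPM. Both overlapped, with log2 fold changes of 0.10 (SE 0.198) and 0.23 (SE 0.191) and adjusted p-values of 0.799 and 0.501, or 0.37 and 0.27 with the trends removed. EIF4E2 ran from 0.12 without replicate 3 of sh-NC to 0.37 without replicate 1. EIF4E turned negative without replicate 3 of sh-NC or replicate 2 of sh-IGF2BP3. EIF4E1B, a germline relative, was at 0.286 CPM or less and was not tested.

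EIF4G1, the main scaffold of the cap complex, was at 1442, 979 and 742 CPM in sh-NC and at 1394, 1415 and 1532 CPM in sh-IGF2BP3. Only replicate 1 of sh-NC reached the knockdown libraries, and the log2 fold change was 0.46 (SE 0.231, adjusted p = 0.258), or 0.30 with the trends removed. It was 0.24 without replicate 3 of sh-NC and 0.75 without replicate 1. EIF4G3 was at 125, 150 and 176 CPM against 110, 113 and 133 CPM, with a log2 fold change of -0.34 (SE 0.190, adjusted p = 0.300), or -0.037 with the trends removed. EIF4G2, an eIF4G relative that lacks the eIF4E-binding region and the most abundant EIF4 gene by FPKM, was at 2195, 1610 and 1226 CPM against 1162, 1490 and 1860 CPM. It spread widely in both groups and its log2 fold change was -0.16 (SE 0.241, adjusted p = 0.726), or -0.047 with the trends removed. The sign turned without replicate 1 of sh-NC (0.089) or replicate 1 of sh-IGF2BP3, and the value was -0.36 without replicate 3 of sh-IGF2BP3.

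The helicase EIF4A1 was low in this table, at 20.1, 13.9 and 12.4 CPM in sh-NC and 25.2, 21.5 and 19.3 CPM in sh-IGF2BP3. The whole of its principal transcript lies inside exons of other genes on the same strand. Same-strand genes that overlap EIF4A1 include a read-through gene, SENP3-EIF4A1, at 15 to 43 counts, and a long non-coding RNA gene at 1 to 3 counts. How much of the transcript each of them covers was not worked out. The pseudogenes of EIF4A1 held 33.8 to 49.7% of the counts of the gene and its pseudogenes. Its log2 fold change of 0.51 (SE 0.239, adjusted p = 0.224), or 0.54 with the trends removed, thus rests on the part of the reads assigned to the gene. EIF4A2, its paralog, was at 429, 359 and 429 CPM against 256, 395 and 411 CPM, with overlap and a log2 fold change of -0.20 (SE 0.210, adjusted p = 0.602), or 0.08 with the trends removed and -0.0061 without replicate 1 of sh-IGF2BP3. Without replicate 3 of sh-IGF2BP3 it was -0.33. Over the 14 tested EIF4 genes 8 were positive and 6 negative with a median of 0.06, and 0.08 with the trends removed. Without replicate 3 of sh-NC 6 were positive and 8 negative with a median of -0.045. The median was -0.016 without replicate 3 of sh-IGF2BP3, 0.024 without its replicate 2, 0.15 without its replicate 1, and 0.20 and 0.0095 without replicates 1 and 2 of sh-NC.

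**Figure D4:**
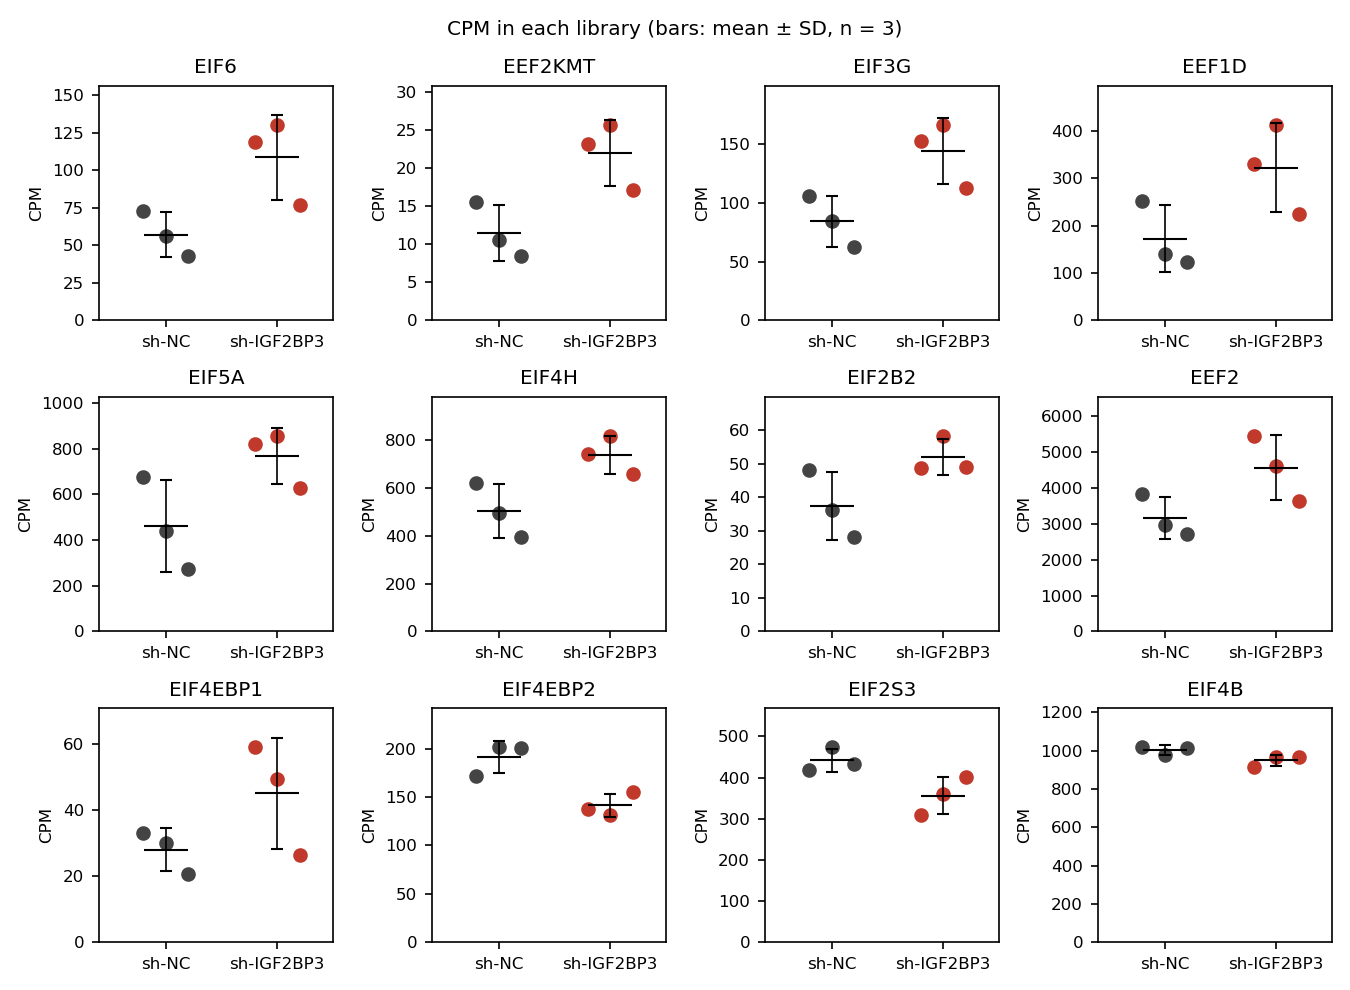
CPM in each library (vertical axis, from 0) for 12 members in sh-NC (grey) and sh-IGF2BP3 (red), with the mean and SD of 3 libraries; points are replicates 1 to 3 from left to right. EIF6, EEF2KMT, EIF3G, EIF4H and EIF2B2 have no overlap in the higher direction and EIF4EBP2, EIF2S3 and EIF4B none in the lower, while EEF1D, EIF5A, EEF2 and EIF4EBP1 overlap through 1 library of a group.

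EIF6, which keeps the large ribosomal subunit from joining the small one, had the smallest p of all members. It was at 72.7, 56.1 and 42.9 CPM in sh-NC (mean 57.2 ± 14.9, SD, n = 3) and at 119, 130 and 76.7 CPM in sh-IGF2BP3 (109 ± 28.2, n = 3). The lowest knockdown library lay just above the highest control. The log2 fold change was 0.92 (SE 0.234), with an adjusted p of 0.103 by edgeR and 0.0224 by DESeq2. It was 0.54 with the trends removed, and the groups still did not overlap. Part of its transcript (22.0%) lies in exons of another gene on the same strand.

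EIF5A, which relieves ribosomes stalled at prolines, was at 674, 441 and 273 CPM in sh-NC and at 818, 855 and 629 CPM in sh-IGF2BP3. Replicate 1 of sh-NC overlapped the knockdown libraries, and the log2 fold change was 0.73 (SE 0.269, adjusted p = 0.144) and 0.41 with the trends removed. It was 0.44 without replicate 3 of sh-NC and 1.11 without replicate 1. EIF5A2, its less abundant paralog, was at 12.1, 23.5 and 20.2 CPM against 11.7, 14.1 and 15.0 CPM, with a log2 fold change of -0.46 (SE 0.262, adjusted p = 0.315) that was -0.047 with the trends removed and -0.24 without replicate 2 of sh-NC. The remaining genes of the group, EIF5, EIF5B and EIF5AL1, ran from -0.31 to -0.11, and with the trends removed from -0.21 (EIF5AL1) to 0.18 (EIF5). Without replicate 1 of sh-NC EIF5 was at -0.0063 and EIF5B at -0.023. Without replicate 3 of sh-IGF2BP3 they were at -0.31 and -0.28, and EIF5AL1 was at -0.59. Over the 6 EIF5 and EIF6 genes 2 were positive and 4 negative with a median of -0.15, which was 0.17 with the trends removed. Leaving out 1 library, the median ran from -0.30 without replicate 3 of sh-IGF2BP3 to 0.021 without replicate 1, where 3 were positive and 3 negative. EIF5AL1 is a near-identical copy of EIF5A, so its reads are uncertain.

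The EEF1 genes encode the factor that delivers aminoacyl-tRNA, its exchange factor and the methyltransferases that act on it, apart from EEF1E1. EEF1A1 was at 13047, 11184 and 12082 CPM in sh-NC and at 10445, 11308 and 11355 CPM in sh-IGF2BP3. On this TMM-adjusted scale the groups overlapped, whereas as a plain share of all counts, given above, they did not, with the knockdown libraries lower. Its log2 fold change was -0.13 (SE 0.197, adjusted p = 0.717), or 0.09 with the trends removed and -0.072 without replicate 1 of sh-NC. Its 49 pseudogenes held 4.46 to 5.15% of the counts of the gene and its pseudogenes. EEF1A2, the form best known from muscle and nerve, was at 557, 303 and 249 CPM against 615, 680 and 478 CPM, and replicate 1 of sh-NC lay inside the knockdown range. Its log2 fold change was 0.68 (SE 0.264, adjusted p = 0.160) and 0.14 with the trends removed, its transcript having 66.4% GC. It was 0.43 without replicate 3 of sh-NC and 1.10 without replicate 1.

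EEF1D, a subunit of the exchange factor eEF1B, was at 253, 141 and 124 CPM in sh-NC (172 ± 70.3, SD, n = 3) and at 331, 412 and 224 CPM in sh-IGF2BP3 (322 ± 94.5, n = 3). Replicate 1 of sh-NC exceeded replicate 3 of sh-IGF2BP3. The log2 fold change was 0.90 (SE 0.273), with an adjusted p of 0.116 by edgeR and 0.0436 by DESeq2, and 0.46 with the trends removed. EEF1B2, another subunit, had a log2 fold change of 0.29, or 0.25 with the trends removed. EEF1G, the remaining subunit, was listed at 0 counts in all 6 libraries. At 3 counts this allows up to 0.196 CPM of reads assigned to it in the library with the fewest counts. The EEF1G transcript lies almost entirely (99.9%) in exons of another protein-coding gene on the same strand, which held 0 to 13 counts. How reads in shared exons were counted is not given, so the 0 sets no limit on the gene's expression.

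The methyltransferases of eEF1A were low, at 1.49 to 13.4 CPM. EEF1AKMT1 was higher without overlap, at 4.91, 4.13 and 2.71 CPM against 5.83, 6.41 and 5.68 CPM, with a log2 fold change of 0.61 (SE 0.305, adjusted p = 0.252). EEF1AKMT3 was lower without overlap, at 6.26, 5.91 and 7.46 CPM against 5.09, 5.62 and 5.68 CPM, with a log2 fold change of -0.26 (SE 0.271, adjusted p = 0.592). EEF1AKMT4 was at 1.92, 1.49 and 1.79 CPM against 2.17, 2.09 and 2.21 CPM, also without overlap, with a log2 fold change of 0.32 (SE 0.352). With the trends removed EEF1AKMT1 was at 0.66 and EEF1AKMT3 at -0.30, whereas EEF1AKMT4 turned to -0.045 and overlapped. EEF1E1, a scaffold of the aminoacyl-tRNA synthetase complex that shares the name, was at -0.18 (SE 0.264, adjusted p = 0.709), or 0.03 with the trends removed. Without replicate 1 of sh-NC EEF1E1 was at -0.085. Over the 9 tested EEF1 genes 5 were positive and 4 negative with a median of 0.29, which was 0.09 with the trends removed. The median was 0.10 without replicate 2 of sh-IGF2BP3 and 0.34 without replicate 1 of sh-NC.

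All 3 EEF2 genes had positive log2 fold changes, with a median of 0.53, and 0.14 with the trends removed, and without replicate 1 of sh-IGF2BP3 2 were positive and 1 negative. EEF2 was at 3827, 2972 and 2707 CPM in sh-NC and at 5449, 4601 and 3635 CPM in sh-IGF2BP3. The highest control exceeded the lowest knockdown library, and the log2 fold change was 0.53 (SE 0.220, adjusted p = 0.181), or 0.14 with the trends removed. EEF2KMT, the methyltransferase that acts on eEF2, was at 15.6, 10.5 and 8.48 CPM (11.5 ± 3.66, SD, n = 3) against 23.2, 25.6 and 17.2 CPM (22.0 ± 4.36, n = 3). It did not overlap, and the log2 fold change of 0.93 (SE 0.264, adjusted p = 0.106 by edgeR and 0.0294 by DESeq2) was 0.69 with the trends removed. EEF2K, the kinase that inhibits eEF2, had a log2 fold change of 0.05 (SE 0.178), or 0.14 with the trends removed, then without overlap. Without replicate 1 of sh-NC it was at 0.0069.

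The ratio of paralogs within a library does not depend on how the library was scaled, and 7 pairs were compared by a two-sided exact permutation test over the 6 libraries. With 3 libraries against 3 the smallest p this exact test can give is 0.1. The log2 ratio of EIF4G1 to EIF4G3 was 3.52, 2.70 and 2.08 in sh-NC and 3.66, 3.64 and 3.53 in sh-IGF2BP3. It was higher in all knockdown libraries by 0.84 (exact p = 0.1, adjusted over the 7 pairs 0.28), although replicate 1 of sh-NC and replicate 3 of sh-IGF2BP3 were almost equal, and by 0.39 with the trends removed (exact p = 0.5). Without replicate 3 of sh-NC the difference was 0.50 and without replicate 1 it was 1.22. The ratio of EIF4A1 to EIF4A2 was -4.41, -4.69 and -5.11 against -3.35, -4.20 and -4.41, a difference of 0.75 (exact p = 0.1, adjusted 0.28) in which the closest libraries of the 2 groups were equal to 2 decimals. With the trends removed it was 0.49 (exact p = 0.2), and without replicate 1 of sh-IGF2BP3 it was 0.43. This ratio rests on the part of the EIF4A1 reads assigned to the gene, as given above, so it need not reflect the mRNA levels.

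The ratio of EIF4EBP1 to EIF4EBP2 differed by 1.07 (exact p = 0.2), that of EIF5A to EIF5A2 by 1.22 (exact p = 0.2) and that of EEF1A1 to EEF1A2 by -0.88 (exact p = 0.2). With the trends removed these were 0.20, 0.50 and -0.09. Taken by replicate number, the difference for each of these ratios had the same sign in all 3 pairs of libraries. The replicate numbers gave no sign of pairing, as given below, so this sign count adds no support to the differences. The difference for EIF5A to EIF5A2 was 0.80 without replicate 3 of sh-NC and 1.82 without replicate 1. EIF1 to EIF1B differed by 0.14 (exact p = 0.5) and EIF4E to EIF4E2 by -0.14 (exact p = 0.3), and these 5 pairs overlapped between the groups. With the trends removed EIF1 to EIF1B was 0.09, and EIF4E to EIF4E2 turned to 0.12. EIF1 to EIF1B ran from 0.012 without replicate 3 of sh-NC to 0.27 without replicate 2, and EIF4E to EIF4E2 was -0.060 without replicate 1 of sh-IGF2BP3 and -0.21 without its replicate 3. Adjusted over the 7 pairs the p-values were 0.28 to 0.50.

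**Figure D5:**
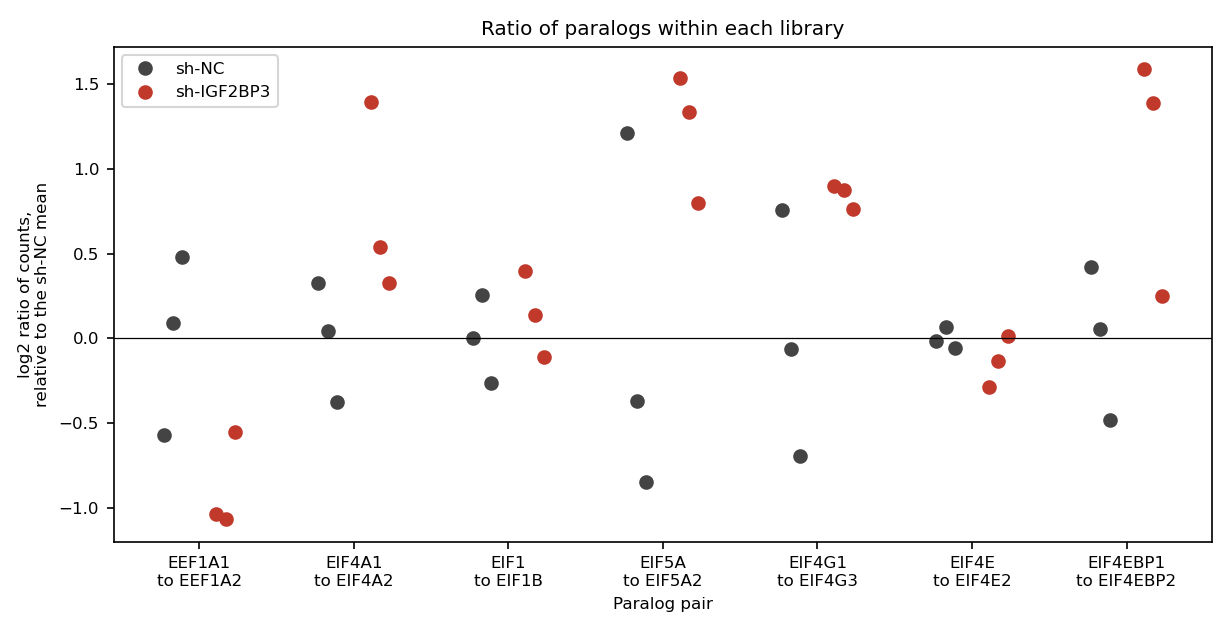
Log2 ratio of the counts of 2 paralogs in each library, set to 0 at the sh-NC mean (vertical axis), for 7 pairs (horizontal axis) in sh-NC (grey) and sh-IGF2BP3 (red). EIF4G1 to EIF4G3 and EIF4A1 to EIF4A2 are higher in all knockdown libraries, by means of 0.84 and 0.75, each with 1 control library close to them. The EIF4A1 values rest on the part of the reads assigned to that gene.

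Genes that act on or beside these factors were read from a list of 50, of which 49 were tested. edgeR called 0 of them. At an unadjusted p under 0.05, 8 were higher and 2 lower, against 13.6% and 8.54% of all genes, and 17 had a positive and 32 a negative log2 fold change with a median of -0.10, or 0.11 with the trends removed. DOHH, the hydroxylase that completes hypusine on eIF5A, was at 19.0, 10.04 and 6.90 CPM in sh-NC and at 32.8, 41.5 and 18.7 CPM in sh-IGF2BP3. It overlapped by 1 control library, with a log2 fold change of 1.37 (SE 0.342, adjusted p = 0.103 by edgeR and 0.0129 by DESeq2) that was 0.69 with the trends removed. RPTOR, the mTORC1 subunit through which the 4E-binding proteins are recruited for phosphorylation, was at 154, 109 and 89.2 CPM against 199, 178 and 171 CPM, all above the controls, with a log2 fold change of 0.63 (SE 0.211, adjusted p = 0.125), or 0.39 with the trends removed. PPP1R15A, which directs the phosphatase that removes the phosphate from eIF2 alpha, was at 83.4, 52.3 and 34.2 CPM against 127, 94.1 and 75.6 CPM, with an overlap between the groups and a log2 fold change of 0.80 (SE 0.275, adjusted p = 0.130), or 0.43 with the trends removed. PDCD4, an inhibitor of eIF4A chosen here after its values were seen, was 1 of the 2 that were lower, at 19.98, 46.2 and 63.5 CPM against 32.8, 23.2 and 19.99 CPM. Replicate 1 of sh-NC lay at the level of the lowest knockdown library, and the log2 fold change was -0.77 (SE 0.319, adjusted p = 0.178), or -0.43 with the trends removed. Of the 10 mitochondrial translation factors on the list, 9 had a negative log2 fold change, with a median of -0.12, and the median was 0.09 with the trends removed.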

How the data were processed

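RNA of 6 HCT116 libraries was sequenced after preparation with an Illumina TruSeq kit. The authors deposited raw whole-number counts and, in a separate table, FPKM values. The processing notes name CASAVA and GRCh38, and the aligner, the counter and its use of strand are not given in the sources used here. Counts were tested with edgeR 4.0.16 in R 4.3.3 (TMM, filterByExpr, quasi-likelihood test, group only, two-sided, Benjamini-Hochberg adjustment over 16753 genes), called at a fold above 1.5 and adjusted p under 0.05. CPM are counts scaled to the library size after TMM adjustment, so they are not plain shares of all counts. Log2 CPM used a prior count of 2, and overlap was read on log2 CPM. SE is the log2 fold change divided by the square root of the quasi-likelihood F. DESeq2 1.42.0, limma 3.58.1 on log2(FPKM + 1) and log2(FPKM + 0.1) (mean FPKM 1 or more), other filters and each library left out were alternatives. Trends were splines with 5 degrees of freedom on GC content (GENCODE 29 principal transcript, 96.9% of tested genes) and on the gene length implied by counts and FPKM, removed as offsets.

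Named members were those called, the 12 with the smallest p, the most abundant by FPKM in each group, the eIF2 subunits and the paralog pairs; partner genes named were the 3 with the smallest p. All other members named, and PDCD4, were chosen after their values were seen. Members and lists were chosen with earlier results of these data known. Pairs of libraries within a group differed by 16.6 to 52.3 chi-square units per degree of freedom, so none was a duplicate. On simulated data for 16375 genes, edgeR recovered 10.45% of genes changed 1.5-fold, 76.1% of those changed 2-fold and 95.45% of those changed 3-fold. Changes were planted only in genes above a minimum mean CPM, and recovery was read at an adjusted p under 0.05 without the fold threshold. The simulated libraries carried no GC trend. Intervals and floors cover counting error only. Hairpin sequences came from the study's supplement.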

Additional observations from a re-analysis of the deposited data

How the results depend on the processing

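No tested member was called under RLE scaling, a minimum of 10 counts in every library, the 3 FPKM fits, the replicate block and the trend removals. The filtered FPKM fits, log2(FPKM + 1) and log2(FPKM + 0.1), held 60 members, without EIF4E3. DESeq2 called 4 members higher and edgeR without a filter called 4, the same 4 (EIF6, EEF2KMT, EIF3G and EEF1D). Over all genes edgeR without a filter called 687 of 36335 higher and 150 lower, and the DESeq2 shares are given above. Of the 27 named members, 19 kept their sign under all alternatives run. At the depth of these libraries and with 3 per group, 1.5-fold changes were mostly out of reach in simulated data. Larger changes were mostly recovered there, 76.1% of those of 2-fold and 95.45% of those of 3-fold. The simulated libraries had no GC trend and no library apart from its group, so these shares need not carry over to the real libraries. Why edgeR called no gene in the main fit was not tested.

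At an unadjusted p under 0.05 the 13 higher members became 8 with at least 10 counts (13.7% of all genes), 8 on log2(FPKM + 1) (12.5%) and 7 on it without a filter (4.90%). The 2 lower became 1 in edgeR without a filter (5.40% of all genes) and 0 with the length trend, the GC trend, both, or GC and transcript length removed (3.67 to 6.86%; the last chosen after seeing the data). The 4 members lower without overlap became 8 on each of the 3 FPKM fits (13.8% of all genes, 8.78% without a filter) and 2 with the GC trend, GC and gene length, or GC and transcript length removed (6.64 to 6.82%). The EEF1 median of 0.29 became 0.11 with the length trend removed, 0.12 with the GC trend, 0.093 with both and 0.053 with GC and transcript length. EIF4E to EIF4E2 became 0.12 with both trends removed. EEF1A1 became 0.011 with the length trend removed, 0.0083 with the GC trend, 0.093 with both and 0.053 with GC and transcript length. EIF4A2 became 0.073 with the GC trend and 0.084 with both, EIF2S2 became -0.059 with the length trend, and EIF5A2 became 0.0042 with GC and transcript length. Apart from these constructions the cause was not tested. The 12 members whose reads can also fit another gene were left out in a further count, also chosen after seeing the data. At an unadjusted p under 0.05, 11 of the remaining members were higher and 2 lower, against 13.6% and 8.54% of all genes. Their median stayed at 0.13.

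The paper describes the sequenced control and knockdown cells as pairs and does not say what paired them. The replicate numbers gave no sign of pairing: deviations of same-numbered libraries correlated at -0.28, -0.19 and -0.04. With a replicate block 0 members were called, 13 were higher and 1 lower at an unadjusted p under 0.05, against 12.6% and 6.92% of all genes. With the block and both trends removed these were 8 and 0, against 4.81% and 1.96%, and 2 were lower without overlap, against 6.64%. The EIF3 median was then 0.34, the EEF1 median 0.10, EEF1A1 was at 0.10 and EIF4A2 at 0.084.

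Fits without 1 library each gave 0 to 18 members called higher and 0 to 2 lower, against 0 to 10% and 0 to 5.67% of all genes. At an unadjusted p under 0.05 they gave 4 to 22 and 0 to 4, against 7.02 to 17.7% and 3.81 to 14.2%, and without overlap 6 to 27 and 4 to 9, against 13.8 to 24.3% and 13.3 to 25.2%. The median of all members ran from 0.00033 without replicate 3 of sh-NC to 0.24 without replicate 1, that of EIF2 from -0.0052 to 0.15 and that of EIF4 from -0.045 to 0.20. The EIF3 median ran from -0.020 to 0.33 and that of EEF1 from 0.10 to 0.34. The log2 fold change ran from -0.042 to 0.26 for EIF3A, from -0.36 to 0.089 for EIF4G2, from -0.0050 to 0.28 for EIF2S1, from -0.025 to 0.19 for EIF2S2 and from -0.031 to 0.23 for EIF4E. IGF2BP3 ran from -0.66 to -0.19 over all alternatives, with adjusted p from 0.0829 to 0.876.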
